A study of Mus musculus with 34 samples.

Results

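The Notch pathway genes examined here were the receptors *Notch1*, *Notch2*, *Notch3* and *Notch4*, the ligands *Jag1*, *Jag2*, *Dll1* and *Dll4*, and the target genes *Hes1* and *Hey1*. They were taken by symbol from a table of mRNA abundance in mouse limb bud cells, and all 10 symbols were found once among the 22040 protein-coding genes listed. The table holds 3 WT and 3 CKO libraries of limb buds collected at E11.5. The CKO embryos carried floxed *Hnrnpk* alleles together with *Prrx1-Cre*, a transgene that drives recombination in limb bud mesenchyme, and the WT group is labelled *Hnrnpk* WT with no further allele. Embryos of both sexes were used and were not told apart. Whole limb buds also contain vessels, surface ectoderm, muscle precursors, nerve and blood cells, so that each value is an average over cells in which the transgene acts and cells in which it does not. *Hnrnpk* encodes an RNA- and DNA-binding protein, and the comparison asks how the levels of Notch pathway mRNAs differ after its deletion.

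Notch signalling passes between neighbouring cells. A Delta or Jagged ligand on one cell engages a Notch receptor on the next, the receptor is cut by an ADAM protease and then by γ-secretase, and the released intracellular domain enters the nucleus, where it joins the DNA-binding protein Rbpj and a Mastermind coactivator to switch on repressor genes of the *Hes* and *Hey* families. In the limb bud, *Jag2* and *Notch1* are known from the apical ectodermal ridge, *Notch4* and *Dll4* from endothelium, *Notch3* from the mural cells of vessels and *Hes1* from mesenchyme.

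Rbpj binds DNA through a short core that includes the letters TGGGAA. To show what such a core looks like in a Notch target promoter, the 250 bases before the RefSeq start site were searched on both strands for TGGGAA. The 2 promoters below are shown because they are the ones, among *Hes5*, *Hey2* and *Nrarp*, that hold it. Capitals mark the match, and TTCCCA is the same core read from the opposite strand. Positions are on GRCm38.p6, chr4:154960673-154960922 (plus strand) for *Hes5* and chr10:30842784-30843033 (minus strand) for *Hey2*.
Hes5: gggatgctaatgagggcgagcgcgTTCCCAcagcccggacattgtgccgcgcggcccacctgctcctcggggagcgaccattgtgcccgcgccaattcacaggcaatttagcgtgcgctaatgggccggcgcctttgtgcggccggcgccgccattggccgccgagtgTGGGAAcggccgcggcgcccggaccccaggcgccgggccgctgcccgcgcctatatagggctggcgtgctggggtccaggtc
Hey2: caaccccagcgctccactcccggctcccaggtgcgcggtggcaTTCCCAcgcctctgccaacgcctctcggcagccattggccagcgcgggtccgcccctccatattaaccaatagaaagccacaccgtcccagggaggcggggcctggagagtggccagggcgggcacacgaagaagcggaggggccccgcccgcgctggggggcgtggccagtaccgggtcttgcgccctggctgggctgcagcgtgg

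In *Hes5* the first base of the match lies 82 bases before the start site on the forward strand and 226 bases before it on the reverse strand. In *Hey2* the reverse match begins 207 bases before the start. The RefSeq promoter table held 8 of the 10 genes, in 9 windows because *Dll1* is listed with 2 start sites, and 0 of the 9 windows held TGGGAA, against 21.6% of all 32851 promoters. *Hes1*, *Hey1* and *Heyl* had no entry in that table. A match of letters is a description, and its absence from 250 bases says nothing about binding. The choice of *Hes5* and *Hey2* for display was made after the sequences had been seen.

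Abundance is given in FPKM, a measure of sequenced fragments that is corrected for the length of the gene and a size set for the library. The reads on the listed genes numbered from 17140867 to 24624430 per library. Recovered from the FPKM, the size divided by was smaller than this number of reads in CKO replicates 2 and 3 (ratios of reads to size 1.107 and 1.033). In the other libraries this ratio was 0.947 to 0.968. *Hnrnpk* itself stood at 193, 195 and 185 FPKM in WT replicates 1, 2 and 3 and at 127, 142 and 135 FPKM in CKO replicates 1, 2 and 3. The groups did not overlap, with a log2 fold change of -0.50 ± 0.13 (SE, n = 3 per group), although this difference was not called by limma (adjusted *p* = 0.334). Its adjusted *p* was 0.0575 with the replicate number as a block. The whole-gene value includes reads from exons outside the floxed part and from cells without Cre. *Prrx1*, a gene of limb mesenchyme, ranged from 54.5 to 62.0 FPKM in WT and from 51.6 to 60.8 FPKM in CKO, so limb mesenchyme was present in both groups. The replicate 1 libraries of both groups stood apart from the others in many genes, and the values in replicates 2 and 3 alone are given where they differ.

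None of the 10 genes passed the test between CKO and WT, and all their fold changes were small. Genes were compared by limma on log2(FPKM + 0.1), a scale on which the fold changes of low genes are understated, and were called at an adjusted *p* value under 0.05. All 10 passed the filter of a mean of 0.5 FPKM over the 6 libraries. The test called 0 of them, beside 8 of the 12305 genes tested (0.0650%), and at an unadjusted *p* under 0.05 it counted 0 of them, against 8.31% of all genes. The fold changes ran from -0.39 for *Notch3* to 0.35 for *Jag1* on the log2 scale, 5 genes had a positive and 5 a negative value, and the median was -0.0039, beside 0.0048 for all genes tested. For all 10 the 95% interval of the fold change lay inside 2-fold in either direction, as it did for 89.4% of the genes tested. Changes of the size that these intervals allow can go uncalled with 3 libraries per group. That of *Hnrnpk* did, although its interval, from -0.80 to -0.21, left out 0.

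**Figure D1:**
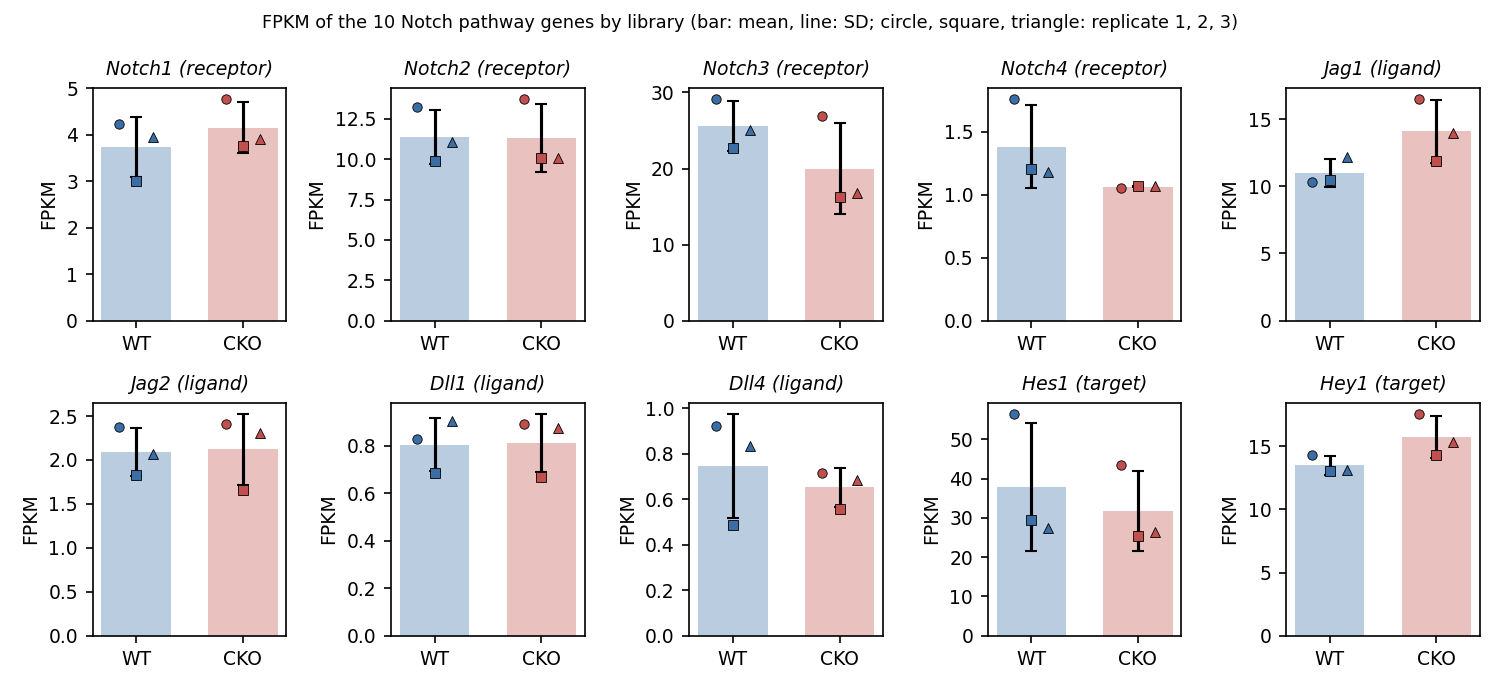
FPKM of each gene (y axis, from 0) in the WT and CKO libraries (x axis), where bars are group means, lines the SD (n = 3) and circles, squares and triangles replicates 1, 2 and 3. *Notch4* is the one gene of the 10 whose 3 CKO libraries all lie below the 3 WT libraries, and *Hes1* shows the replicate 1 library of each group far above the rest.

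The levels spanned 50.6-fold in WT, from 37.9 ± 16.2 FPKM (SD, n = 3) for *Hes1* to 0.748 ± 0.229 FPKM for *Dll4*. From the top, the WT order was *Hes1*, *Notch3*, *Hey1*, *Notch2*, *Jag1*, *Notch1*, *Jag2*, *Notch4*, *Dll1* and *Dll4*. Each neighbour in this order was higher than the next in 6 of 6 libraries, with 2 exceptions. *Notch2* and *Jag1* changed places by mean between the groups, since *Notch2* was the higher of the pair in 1 of 3 WT libraries and *Jag1* the higher in 3 of 3 CKO libraries. *Dll1* was above *Dll4* in 5 of 6 libraries. These levels are per length of the merged exons of all annotated transcripts, which is 14232 bases for *Notch1* and 8061 for *Notch4*. Comparisons between genes depend on that length. *Hes1* stood at the 89.6th percentile of the genes tested by its mean FPKM and *Notch3* at the 82.8th, whereas *Dll1* and *Dll4* stood at the 6.24th and 4.40th.

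Among the receptors, *Notch3* (chromosome 17, 32120820-32166852, GRCm38, minus strand) was the most abundant in every library. It read 29.2, 22.6 and 25.0 FPKM in WT replicates 1, 2 and 3 and 26.9, 16.2 and 16.8 FPKM in CKO replicates 1, 2 and 3. CKO replicate 1 lay within the WT range and the other two CKO libraries lay below it. The log2 fold change was -0.39 ± 0.21 (SE, adjusted *p* = 0.695 by limma), and an exact two-sided permutation test of the mean FPKM gave *p* = 0.3, where 0.1 is the smallest value that 3 against 3 libraries allow. Between libraries of the same replicate number the log2 difference was -0.12, -0.48 and -0.57 for numbers 1, 2 and 3. With the replicate number as a block the adjusted *p* was 0.0921, short of the threshold that 2.81% of genes passed in that fit.

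The value of *Notch3* turned on replicate 1. In replicates 2 and 3 alone it was lower in CKO by limma, with a log2 fold change of -0.52 ± 0.13 and an adjusted *p* of 0.00385, and it was the 1 gene of the 10 called there. In those 4 libraries 8.00% of all genes were called lower and 7.12% higher. Over all 17 alternatives its adjusted *p* ran from 0.00385 to 1. The exons of *Notch3* share 488 bases with the antisense gene *Gm17276*, and the library kit keeps strand, but how strand was used in counting is not given in the sources used here. Mural markers, which name the cells best known for this receptor, were mostly low. Of the 9 listed, 5 passed the filter, 1 of the 5 was lower in CKO and 0 were called (1 lower in replicates 2 and 3 alone), *Rgs5* stood between 0.323 and 0.769 FPKM in the 6 libraries, and *Acta2*, a smooth muscle actin, ranged from 2.46 to 16.8 FPKM in WT and from 7.82 to 23.1 in CKO. The summed FPKM of the 9 mural markers was 36.6 to 45.2 in WT and 47.5 to 50.2 in CKO, without overlap. *Pdgfrb*, named after its values were seen, and *Acta2* were the largest values in this sum, and each overlapped between the groups. *Pdgfrb* ranged from 21.88 to 28.52 FPKM in WT and from 21.06 to 35.15 in CKO. The part of mural cells in the *Notch3* values was not tested.

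*Notch2* (chromosome 3, 98013527-98150361, plus strand), the second most abundant receptor, did not separate the groups. It measured 13.2, 9.87 and 11.1 FPKM in WT and 13.8, 10.1 and 10.1 FPKM in CKO, with a log2 fold change of -0.02 ± 0.17 and a 95% interval from -0.41 to 0.38 (adjusted *p* = 0.987 by limma). The 2 libraries of replicate 1 were again the highest of their groups. Its exons share 541 bases on the same strand with the unconfirmed transcript *Gm42820*, so reads there may be assigned to either.

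*Notch1* (chromosome 2, 26457903-26516663, minus strand), the receptor known from the apical ridge and from vessels, read 4.23, 3.01 and 3.95 FPKM in WT and 4.77, 3.76 and 3.92 in CKO. The groups overlapped, with a log2 fold change of 0.16 ± 0.17 (interval -0.24 to 0.56, adjusted *p* = 0.867 by limma). Ectoderm and ridge markers gave no call in either direction, and 1 higher in replicates 2 and 3 alone. Of 14 tested, 12 were higher in CKO and 2 lower, and *Fgf8*, the ridge growth factor, ranged from 6.87 to 10.6 FPKM in WT and from 7.31 to 10.5 in CKO. The authors reported lower *Fgf8* in CKO limb buds at this stage by qPCR and by in situ hybridization. These FPKM did not show that difference.

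*Notch4* (chromosome 17, 34564268-34588503, plus strand), the endothelial receptor, was the least abundant and the only one of the 10 genes whose groups did not overlap. It read 1.76, 1.20 and 1.18 FPKM in WT and 1.06, 1.07 and 1.07 in CKO. All 3 CKO libraries lay below the WT libraries, as did those of 8.86% of the genes tested, while 0 of the 10 genes and 5.63% of all genes had the 3 CKO libraries above. The log2 fold change was -0.33 ± 0.20 (interval -0.78 to 0.13, adjusted *p* = 0.723 by limma; exact permutation *p* = 0.1, the smallest possible). WT replicate 1 set most of the difference, which was -0.69 at number 1 against -0.16 and -0.13 at numbers 2 and 3. Without WT replicate 1 the log2 fold change was -0.15. Between 154 and 256 reads stood behind each value.

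Over all 6 libraries every endothelial marker tested had the negative sign of the *Notch4* fold change. In replicates 2 and 3 alone *Notch4* stayed negative (-0.14), while the signs of the markers were mixed. Of the 16 listed, 15 could be tested and all 15 had a negative fold change, with a median of -0.32 on the log2 scale, 3 at an unadjusted *p* under 0.05 and 0 called. In replicates 2 and 3 alone, 8 of the 15 were lower and 7 higher, with a median of -0.064 and 2 called lower. *Pecam1*, an adhesion molecule of endothelium, ranged from 4.12 to 4.44 FPKM in WT and from 2.08 to 4.80 in CKO. *Cdh5*, the endothelial cadherin, ranged from 6.79 to 12.4 in WT and from 6.30 to 7.42 in CKO, and *Kdr*, a VEGF receptor, from 2.62 to 5.41 and from 2.31 to 2.94. The summed FPKM of the 16 markers was 42.0 to 54.7 in WT and 29.4 to 41.2 in CKO. The replicate 1 libraries held both the highest and the lowest sum. Per this sum, a ratio added after the data were seen, *Notch4* made 3.22%, 2.87% and 2.66% in WT and 3.60%, 2.59% and 2.69% in CKO, which overlapped (exact permutation *p* = 0.9). On the same ratio *Notch1* made 7.17% to 8.94% in WT against 9.12% to 16.3% in CKO. For *Hey1* these were 26.2% to 31.1% and 34.7% to 59.9%. Neither overlapped (exact permutation *p* = 0.1 for each, the smallest possible), with the highest value of each in CKO replicate 1, where the endothelial sum was lowest. That sum was itself lower in every CKO library than in any WT library, so both ratios carry its difference. The FPKM of both genes overlapped. In bulk samples, fewer cells of a type and less RNA per cell cannot be told apart.

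In the make-up of the receptor pool the groups did not overlap for 3 of the 4 receptors. With 3 libraries per group the exact permutation test cannot call such a difference. *Notch3* made up 60.3%, 61.7% and 60.7% of the summed receptor FPKM in WT and 57.9%, 52.0% and 52.8% in CKO, a difference of -6.64 percentage points between the means. The share of *Notch2* ran from 26.9% to 27.3% in the WT libraries and reached 29.6% to 32.5% in the CKO libraries. For *Notch1* the shares were 8.19% to 9.58% and 10.3% to 12.3%. For these 3 receptors the groups did not overlap, and each exact permutation test gave *p* = 0.1, the smallest the design allows (adjusted 0.16 over the 8 shares of receptors and ligands compared). The shares of *Notch4* overlapped, with 2.85% to 3.64% in WT and 2.27% to 3.43% in CKO (exact permutation *p* = 0.7). The 4 shares add up to 100% in a library, so that a smaller share of one receptor is a larger share of others. The 3 differences are therefore not independent. How often shares within other gene families separate the groups was not tested. The summed receptor FPKM was 42.1 ± 5.89 in WT and 36.5 ± 8.65 in CKO (exact permutation *p* = 0.4, n = 3).

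**Figure D2:**
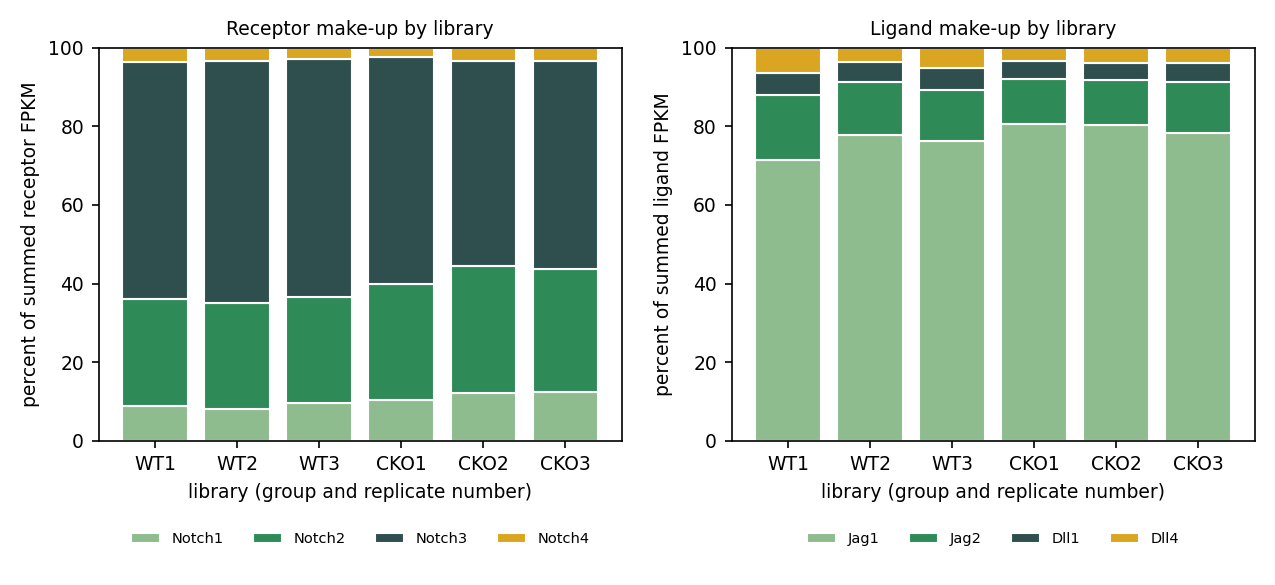
Share of each receptor (left) and each ligand (right) in the summed FPKM of its family (y axis, percent) in each library (x axis, group and replicate number). The *Notch3* block is at most 57.9% high in the CKO libraries and at least 60.3% in the WT libraries, and *Jag1* fills 71.4% to 80.5% of the ligand pool.

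Among the ligands, *Jag1* (chromosome 2, 137081456-137116644, minus strand) was by far the most abundant. It read 10.3, 10.5 and 12.2 FPKM in WT replicates 1, 2 and 3 and 16.5, 11.8 and 13.9 FPKM in CKO replicates 1, 2 and 3. One CKO library lay within the WT range and the other two above it. The log2 fold change of 0.35 ± 0.15 was the largest of the 10 in the positive direction (interval -0.00036 to 0.70), and it was not called (adjusted *p* = 0.600 by limma; exact permutation *p* = 0.2). The same-number differences were 0.68, 0.18 and 0.19. With the replicate block, limma gave an unadjusted *p* of 0.0127 and an adjusted *p* of 0.146 for *Jag1*, and *Jag1* and *Notch3* were the 2 genes of the 10 with an unadjusted *p* under 0.05, a level that 18.4% of all genes passed in that fit.

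*Jag1* also took a larger share of the ligand pool, 71.4%, 77.7% and 76.2% in WT against 80.5%, 80.4% and 78.3% in CKO (exact permutation *p* = 0.1, adjusted 0.16). The groups did not overlap, although the lowest CKO library and the highest WT library were less than a percentage point apart. The share of *Dll1*, 5.08% to 5.75% in WT against 4.34% to 4.91% in CKO, did not overlap either (exact permutation *p* = 0.1, adjusted 0.16), while its own FPKM did. The shares of *Jag2* and *Dll4* overlapped. Like those of the receptors, the ligand shares add up to the whole in each library, so the differences of *Jag1* and *Dll1* are not independent.

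*Jag2* (chromosome 12, 112907819-112929776, minus strand), the ridge ligand, read 2.37, 1.83 and 2.07 FPKM in WT and 2.40, 1.66 and 2.31 in CKO. The log2 fold change was 0.01 ± 0.19, with an interval from -0.43 to 0.45 (adjusted *p* = 0.993 by limma). The libraries numbered 1, 2 and 3 kept one order in both groups, with number 2 the lowest.

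*Dll1* (chromosome 17, 15367354-15376872, minus strand), a ligand known from muscle precursors and neural tissue, read 0.828, 0.683 and 0.902 FPKM in WT and 0.890, 0.668 and 0.875 in CKO. The difference was 0.01 ± 0.21 on the log2 scale (interval -0.47 to 0.49, adjusted *p* = 0.995 by limma). These values rest on 54 to 88 reads per library, so counting alone gives an error of 13.6% at the lowest, and 867 bases of its exons are shared with the opposite-strand *A930024N18Rik*. Muscle markers were higher in CKO in all 10 tested of 11 listed, with a median log2 fold change of 0.54 and 0 called. With the replicate block limma called 1 of them, the muscle actin *Actc1* (1.05 ± 0.22, adjusted *p* = 0.0266), named after its values were seen. In replicates 2 and 3 alone limma called 4 higher, and the median was 0.35, with 9 genes higher and 1 lower. *Myod1*, a determination factor of muscle, read between 1.97 and 6.80 FPKM in WT and between 6.82 and 7.50 in CKO, with the lowest value in WT replicate 1.

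*Dll4* (chromosome 2, 119325784-119335962, plus strand), the ligand of arterial and sprouting endothelium, read 0.922, 0.488 and 0.833 FPKM in WT and 0.717, 0.556 and 0.686 in CKO. The groups overlapped, with a log2 fold change of -0.14 ± 0.26 (interval -0.75 to 0.48, adjusted *p* = 0.924 by limma). It was the most thinly covered of the genes, with 41 to 70 reads per library and a counting error of 15.6% at the lowest. Per summed endothelial FPKM it made 1.16% to 1.88% in WT and 1.35% to 2.44% in CKO (exact permutation *p* = 0.5).

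Of the targets, *Hes1* (chromosome 16, 30064384-30067796, plus strand), a repressor that keeps progenitors undifferentiated, differed more between replicate numbers than between genotypes. It read 56.5, 29.6 and 27.5 FPKM in WT replicates 1, 2 and 3 and 43.5, 25.4 and 26.3 FPKM in CKO replicates 1, 2 and 3. Replicate 1 stood at 1.98 times the mean of the other 2 in WT and at 1.68 times in CKO. The log2 fold change was -0.22 ± 0.31 (interval -0.95 to 0.51, adjusted *p* = 0.896 by limma), which was the widest interval of the 10. With the replicate block the standard error was 0.11 and the adjusted *p* 0.296. The same-number differences were -0.38, -0.22 and -0.06. Without WT replicate 1 the sign turned, to 0.11.

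*Hey1* (chromosome 3, 8663359-8667256, minus strand), a repressor of the Hairy-related family, read 14.3, 13.0 and 13.1 FPKM in WT and 17.6, 14.3 and 15.3 in CKO. The lowest CKO library, 14.28, lay just below the highest WT library, 14.34. The log2 fold change was 0.22 ± 0.12 (interval -0.07 to 0.50, adjusted *p* = 0.710 by limma; exact permutation *p* = 0.2), and the same-number differences were 0.29, 0.13 and 0.22. *Hes1* and *Hey1* therefore had fold changes of opposite sign, and neither was called.

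**Figure D3:**
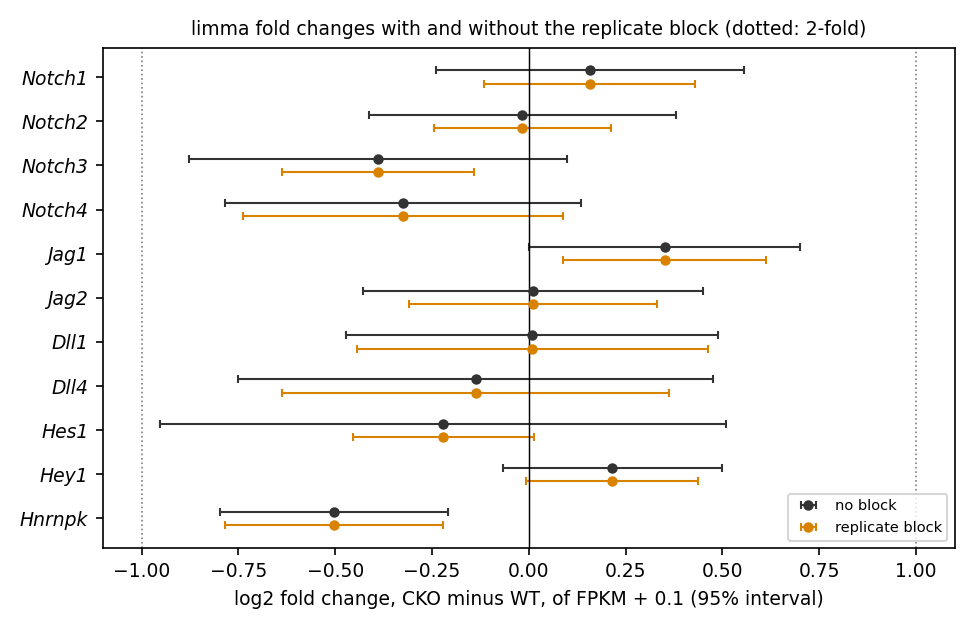
log2 fold change of CKO against WT (x axis) with its 95% interval for each gene and *Hnrnpk* (y axis), by limma without (black) and with (orange) the replicate number as a block. With the block, the intervals of *Notch3*, from -0.64 to -0.14, and of *Jag1*, from 0.09 to 0.61, leave out 0, and no gene of the 10 passed an adjusted *p* of 0.05 in either fit.

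Taken by replicate number, 5 of the 10 genes kept one direction in all 3 numbers. *Notch3*, *Notch4* and *Hes1* were lower in the CKO library at each number, as were 21.3% of the genes tested, and *Jag1* and *Hey1* were higher at each, as were 18.2%. The other 5 genes changed direction between numbers. The size of the difference was not even across numbers. *Notch4* and *Jag1* differed most at number 1, and *Notch3* differed least there.

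**Figure D4:**
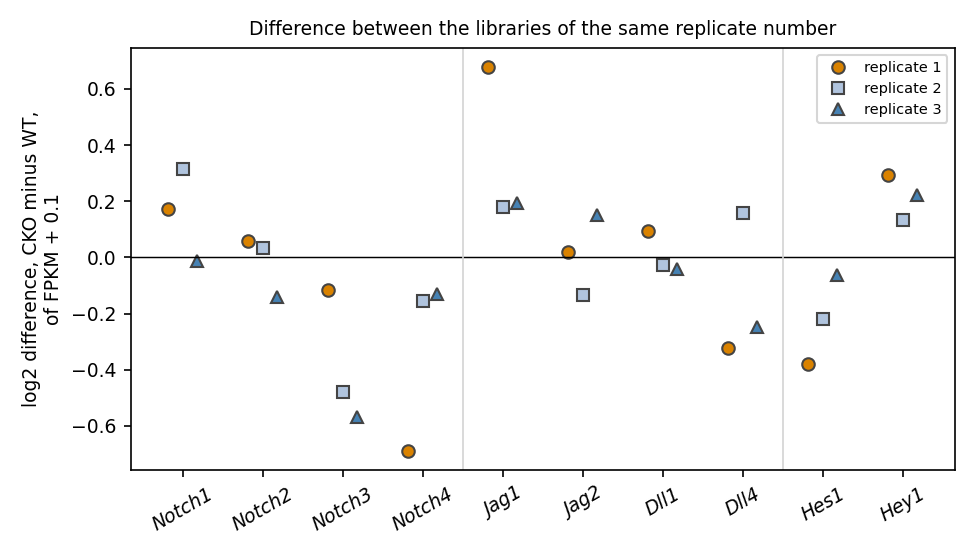
Difference in log2(FPKM + 0.1) between the CKO and WT libraries of the same replicate number (y axis) for each gene (x axis), with replicate 1 in orange, 2 in light blue and 3 in darker blue. *Notch3*, *Notch4* and *Hes1* lie below 0 at all 3 numbers, and *Jag1* and *Hey1* above.

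The wider machinery of the pathway also gave no call. A list of 55 further genes covered other ligands, enzymes that glycosylate or cut the receptor, ubiquitin ligases and traffic factors, nuclear cofactors and further targets. Of these, 46 passed the filter and limma called 0, with or without the replicate block. The list had 22 positive and 24 negative fold changes, with a median of -0.01. At an unadjusted *p* under 0.05 there were 5 lower and 0 higher genes of the 46, where 5.46% of all genes were lower at that level. All 3 CKO libraries lay below the WT libraries for 7 of the 46, against 8.86% of all genes, and above them for 2, against 5.63%.

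The 5 genes were *Dlk1*, *Aph1b*, *Numbl*, *Dtx3* and *Maml2*, of which all but *Dlk1* are named after their values were seen. *Numbl*, which encodes a relative of the Notch antagonist Numb, read 2.08, 3.01 and 2.96 FPKM in WT and 1.73, 1.57 and 1.60 in CKO. Its log2 fold change was -0.66 ± 0.18, with an adjusted *p* of 0.358 by limma and 0.0534 with the block. *Dlk1*, a non-canonical Delta-like ligand, read 16.3, 17.8 and 15.8 FPKM in WT and 14.6, 9.81 and 11.8 in CKO, with a fold change of -0.47 ± 0.16 (adjusted *p* = 0.482 by limma). In both genes the groups did not overlap. *Dtx3*, of the Deltex family, had a fold change of -0.43 ± 0.15, *Aph1b*, a γ-secretase subunit, of -0.39 ± 0.12, and *Maml2*, a Mastermind coactivator, of -0.34 ± 0.14.

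When reads recovered from the FPKM were fitted by limma voom with the replicate block, *Numbl*, *Dlk1* and *Dtx3* were lower in CKO, with adjusted *p* values of 0.00754, 0.0282 and 0.0459, in a fit where 3.20% of genes were called lower. In replicates 2 and 3 alone, limma called 6 of the 46 genes lower and 0 higher, where 8.00% of all genes were called lower and 7.12% higher. The 6 were *Numbl*, *Dlk1*, *Dtx3*, *Dtx4*, *Mib2* and *Aph1b*, the last with an adjusted *p* of 0.0371. *Dtx4* and *Mib2* were also named after their values were seen.

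The core of the pathway was expressed in both groups, and no gene of it was called. *Rbpj*, the DNA-binding partner of the Notch intracellular domain, measured 9.20 ± 0.732 FPKM in WT and 9.71 ± 1.10 in CKO (SD, n = 3), a log2 fold change of 0.07 ± 0.13. Its coactivator *Maml1* measured 14.3 ± 1.39 and 14.6 ± 2.67. The receptor proteases *Adam10* and *Adam17* measured 28.4 ± 2.68 and 10.8 ± 0.336 in WT and 28.8 ± 2.35 and 11.9 ± 0.710 in CKO. The CKO libraries of *Adam17* all lay above the WT libraries, without a call (adjusted *p* = 0.788 by limma). *Mib1*, the ligase that activates ligands, measured 15.3 ± 1.80 and 16.4 ± 1.99, and *Numb* 9.65 ± 0.508 and 8.32 ± 1.28.

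Of the glycosyltransferases that tune the choice of ligand, *Rfng* was the most abundant Fringe gene, with 8.83 ± 0.220 FPKM in WT and 8.67 ± 1.38 in CKO. *Lfng* measured 1.91 ± 0.702 and 2.18 ± 0.340, and *Mfng* 1.24 ± 0.147 and 0.900 ± 0.248, a log2 fold change of -0.44 ± 0.23 (adjusted *p* = 0.680 by limma). *Pofut1*, which adds the fucose that Fringe enzymes extend, measured 6.03 ± 0.369 and 5.23 ± 0.887. *Dll3*, a ligand that does not activate receptors, read 0.175, 0.894 and 0.949 FPKM in WT and 0.368, 0.733 and 0.677 in CKO, so that the replicate 1 library was the lowest of each group.

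Further targets gave no call either. *Nrarp*, a feedback inhibitor, measured 6.37 ± 0.476 FPKM in WT and 6.90 ± 1.87 in CKO. *Heyl* measured 0.767 ± 0.280 and 0.930 ± 0.208, with a log2 fold change of 0.29 ± 0.31. *Hes5* and *Hey2*, whose promoters are printed above, were under the filter and were not tested. *Hes5* lay between 0.0613 and 0.122 FPKM in WT and between 0 and 0.122 in CKO, and *Hey2* between 0.429 and 0.640 in WT and between 0.349 and 0.557 in CKO.

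**Figure D5:**
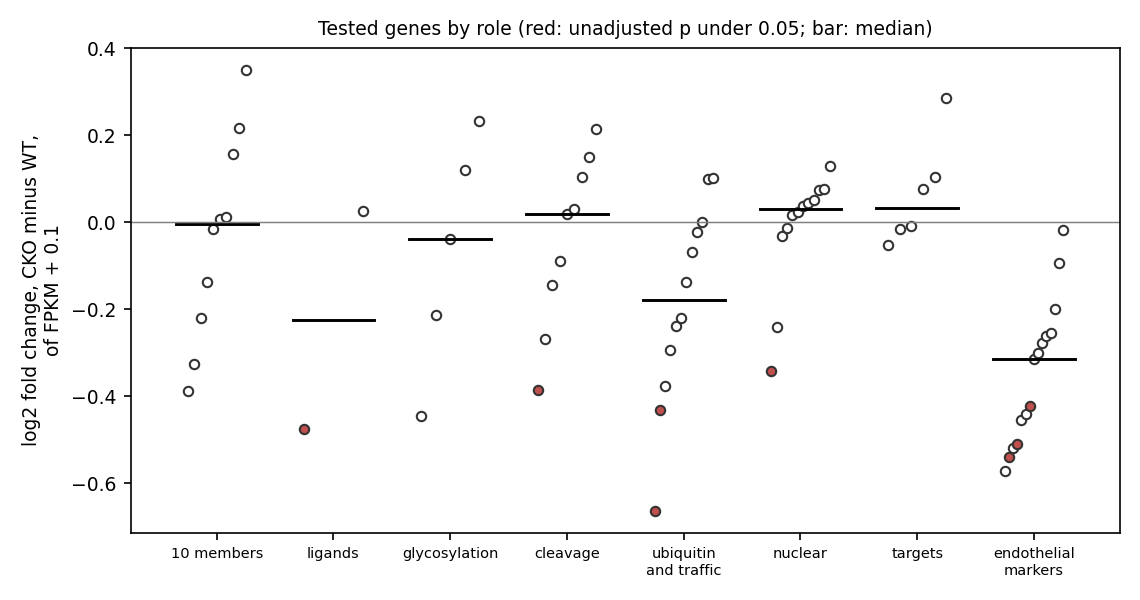
log2 fold change of CKO against WT (y axis) of each tested gene among the 10 and, by role, in the wider list, and of the endothelial markers (x axis), with bars at the medians and red points at an unadjusted *p* under 0.05. The medians of the roles lie between -0.22 and 0.03, while all 15 endothelial markers lie below 0, around a median of -0.32, which is -0.064 in replicates 2 and 3 alone, where 7 of the 15 lie above 0.

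The remaining marker lists were read for the cells the samples could hold. Of 12 genes of limb mesenchyme, 10 were lower and 2 higher in CKO, with a median of -0.17. Their summed FPKM was 484 to 536 in WT and 425 to 479 in CKO, without overlap. The sums of the other lists here overlapped between the groups, as did those of the ectoderm and muscle markers. For 10 erythroid genes all were higher, with a median of 0.44, and *Hbb-y*, an embryonic globin, ranged from 14200 to 31700 FPKM in WT and from 12270 to 78180 in CKO. Of 11 Schwann and neural genes 5 were tested, 3 higher and 2 lower, and *Sox10* read 0.491 to 2.02 FPKM in WT and 1.32 to 1.75 in CKO. Of 9 macrophage genes 8 were tested, 7 higher and 1 lower, and *Ptprc*, the common leukocyte marker, lay between 0.233 and 0.338 FPKM in WT and between 0.190 and 0.335 in CKO. Over all 6 libraries and without the block, limma called no gene of these 4 lists. With the block it called 1 mesenchyme gene lower, the forelimb transcription factor *Tbx5* (-0.93 ± 0.15, adjusted *p* = 0.00734), named after its values were seen. Its hindlimb relative *Tbx4*, of the same list and also named afterwards, had -0.0033 ± 0.11 in that limma fit (adjusted *p* = 0.990). In replicates 2 and 3 alone limma called 3 mesenchyme genes lower and 6 erythroid genes higher, with list medians of -0.22 and 0.77. Their part in the values of the Notch genes was not tested.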

How the data were processed

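The authors made stranded mRNA libraries from limb buds and deposited 1 table of FPKM, with protein-coding genes only. The submitters' processing notes list mm10, cutadapt 2.5, HISAT2 2.1.0 and featureCounts 1.6.3 among their tools without roles, and how the FPKM were scaled is not given in the sources used here. Of the identifiers, 99.5% were found in GENCODE on GRCm38. FPKM times merged exon length gave whole reads (within 0.1) in all libraries for 92.6% of these genes, not for *Notch3*, whose reads are estimates. Chromatin samples (Hi-C, ATAC-seq, CUT&RUN) were not used here.

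Genes with a mean of at least 0.5 FPKM were compared with limma 3.58.1 (R 4.3.3, eBayes with trend) on log2(FPKM + 0.1), with Benjamini-Hochberg adjustment over all 12305. Single values and shares were compared by exact two-sided permutation tests (scipy 1.17.1). Counting errors cover the sampling of reads only. Labels do not say whether replicates are separate litters, so *p* values measure the spread between libraries. Deviations from the group means correlated across genes, which are not independent, at 0.64, 0.44 and 0.27 for replicates 1, 2 and 3. Number 1 alone stands apart, since crossing numbers 2 and 3 between the groups gave 0.49 and 0.31. Libraries of 1 number were paired only in the same-number differences and in the fits with the replicate block. The limma fit without the block and the permutation tests did not pair them. The meaning of the numbers is not stated in labels or methods.

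The members and gene lists were chosen with earlier results of these data known. Named were the 10 genes, 17 preset genes of the wider list (1 is not reported here), any gene of that list called with or without the block, *Hnrnpk* and defining markers. Alternatives were other pseudocounts, filters and scalings, no trend, the replicate block, each library left out, replicates 2 and 3 alone, and voom on recovered reads. The model was tested on simulated data.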

Additional observations from a re-analysis of the deposited data

How the results depend on the processing

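The number of the 10 genes called was 0 in 16 of the 17 alternatives and 1 (*Notch3*) in replicates 2 and 3 alone. For the wider list it was 0 in 15 alternatives, 6 in replicates 2 and 3 alone and 3 by voom with the replicate block. *Dll1* and *Dll4* were not tested in the alternative with a filter at a mean of 1 FPKM. *Hnrnpk* was called in replicates 2 and 3 alone (-0.45) and by voom with the replicate block (-0.49). The replicate block alone gave 0 calls among the 10 genes, 0 in the wider list and -0.50 for *Hnrnpk*, and changed no call named here except those of *Actc1* and *Tbx5*, while over all genes it raised the calls from 8 to 346.

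Leaving out 1 library gave 0 calls each time for the 10 genes and for the wider list, -0.54 to -0.46 for *Hnrnpk*, a difference of -8.44 to -5.54 percentage points for the *Notch3* share and of 2.78 to 5.94 for the *Jag1* share. The sign changed for *Notch2* (-0.16 to 0.095), *Jag2* (-0.084 to 0.17), *Dll1* (-0.091 to 0.13, and -0.034 in replicates 2 and 3 alone), *Dll4* (-0.38 to 0.017) and *Hes1* (-0.47 to 0.11), for *Dll4* and *Hes1* without WT replicate 1. *Notch1*, *Notch3*, *Notch4*, *Jag1* and *Hey1* kept their sign in all 17. The causes were not tested. Depth limits *Dll1* and *Dll4* most.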
